A study of Saccharomyces cerevisiae with 36 samples.

Results

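The comparison is between haploid yeast of the eco1-W216G strain and the wild type (WT), both taken after 55 min without amino acids. It rests on 6 of the 36 arrays of the series, chosen by their titles, with 3 arrays of eco1-W216G and 3 of WT. Eco1 is the acetyltransferase that modifies cohesin, and the W216G allele stood at the native locus beside a HYG marker, in a single strain. All strains were MATa haploids of the W303a background with ura3-1, leu2,3-112, his3-1, trp1-1, ade2-1 and can1-100, and all lacked BAR1, so that WT here means wild type for ECO1 only. The 3 arrays of a group came from independent cultures grown at 30 °C in rich YPD medium with added amino acids and moved to minimal SD medium without amino acids. The series also holds the scc2-D730V strain, which carries a mutation in the cohesin loader, and times of 0, 15 and 35 min. RNA was hybridised to Affymetrix yeast arrays, on which each probe set reads 1 transcript or a few near-identical ones.

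Yeast cells that lose their amino acids stop making ribosomes. The genes for ribosomal proteins, and the much larger set for the factors that build ribosomes, are switched off within minutes. Genes for amino acid synthesis, nitrogen scavenging and autophagy are switched on, many of the first kind through the activator Gcn4 and many of the second through GATA factors that are held back while good nitrogen sources last. The results are ordered by these functions.

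After 55 min, 843 probe sets were called up in eco1-W216G relative to WT and 829 were called down, at an adjusted p under 0.05 from limma and at least 1.4-fold. These are 14.6% and 14.4% of the 5763 probe sets tested. The increases were the larger changes. At least 2-fold, 497 probe sets were up and 107 down, and at least 4-fold, 100 were up and 3 down. The median log2 ratio of the probe sets called up was 1.13, that of the probe sets called down was -0.69, and that of all probe sets was -0.09. With cyclic loess between arrays the counts were 959 up and 613 down, so that 61.0% of the calls were increases, where the RMA values as deposited gave 50.4%. All eco1-W216G arrays read above all WT arrays in 1240 probe sets (21.5%) and below them in 1782 (30.9%). These include 825 of the probe sets called up and 799 of those called down.

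The arrays of a strain resembled each other more than those of the other strain. Log2 values correlated at a mean of 0.935 over the 9 pairs of eco1-W216G with WT arrays, 0.991 within eco1-W216G and 0.980 within WT. The labels held for mating type, since the a-specific MFA1, MFA2 and STE2 read between 13.9 and 14.7 on these arrays and the alpha-specific MF(ALPHA)1, MF(ALPHA)2 and STE3 at most 8.15. A further alpha-specific gene, SAG1, read between 11.4 and 12.2 and was not low. BAR1, deleted in every strain, read 4.44 to 4.75. SCC2 was not called (log2 ratio 0.26, adjusted p = 0.0666 from limma).

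ECO1 itself read 6.19, 7.45 and 6.44 on the eco1-W216G arrays, against 7.77, 7.71 and 7.67 on the WT arrays. The groups did not overlap, but replicate 2 of the mutant came close to the WT arrays. By limma this was a log2 ratio of -1.03, with a standard error of 0.24 (adjusted p = 0.00161). Over the time course the mutant averaged 5.15, 6.23, 6.45 and 6.69 at 0, 15, 35 and 55 min and WT averaged 8.43, 8.55, 7.92 and 7.72, so ECO1 was least different from WT at 55 min. The position of its probes relative to the changed part of the locus was not known here.

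The 10 largest increases and the 10 largest decreases among named genes whose arrays did not overlap span very different functions. On the side of the increases, 3 were stress genes of the list of small heat shock proteins and sequestrases, of whose 6 members 3 were up and 0 down. HSP30 (YCR021C), a stress-induced protein in the plasma membrane, read 13.06, 12.53 and 12.87 in eco1-W216G, against 8.57, 8.45 and 8.10 in WT. Every mutant array was nearly 4 log2 units above the highest WT array, the widest separation among the increases. This was 21.9-fold, a log2 ratio of 4.45 with a standard error of 0.72 (limma, adjusted p = 3.13e-05). BTN2, which gathers misfolded proteins, averaged 12.87 ± 0.46 in eco1-W216G and 9.78 ± 0.32 in WT (SD, n = 3 each; log2 ratio 3.09). HSP26, a small heat shock protein, averaged 13.46 ± 0.29 in eco1-W216G and 10.57 ± 0.44 in WT (log2 ratio 2.88).

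Another 3 of the 10 largest increases belong to ribosomes. HCA4, an RNA helicase of the small subunit processome, read 8.63, 8.24 and 8.97 in eco1-W216G, against 6.53, 5.15 and 5.75 in WT (log2 ratio 2.81). DRS1, an RNA helicase of large subunit assembly, read 10.66, 10.49 and 10.75 in eco1-W216G, against 8.49, 7.17 and 8.04 in WT (2.74). RPS0B, of the small subunit, read 13.71, 13.71 and 13.75 in eco1-W216G, against 11.14, 10.47 and 11.30 in WT (2.75). In all 3, WT replicate 2 was the lowest of the 6 arrays.

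The remaining increases were in transport and in genes without a known role. BIO5, which carries a biotin precursor into the cell, read 11.59, 11.92 and 11.49 in eco1-W216G, against 8.54, 8.67 and 8.40 in WT (log2 ratio 3.13, standard error 0.32, adjusted p = 3.34e-08 from limma). HXT2, a high-affinity glucose transporter, read 12.49, 12.25 and 12.67 in eco1-W216G, against 9.44, 8.81 and 10.10 in WT (3.02). YDR042C (3.30) and YAL065C (3.19), which have only systematic names, came next after HSP30. YAL065C lies near the left end of chromosome I, from 11565 to 11951 in assembly R64.

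The 3 largest decreases were neighbours. FRE3, a ferric reductase, and FIT2 and FIT3, cell wall mannoproteins that help to retain iron, lie together on chromosome XV from 1055545 to 1061055 of R64. FIT2 read 4.83, 4.91 and 4.84 in eco1-W216G, against 11.76, 12.72 and 12.33 in WT. FIT2 fell by 7.41 on the log2 scale, FRE3 by 6.05 and FIT3 by 6.01. The mutant readings of FIT2 and FRE3 averaged only 0.31 and 0.46 above that of BAR1, which is deleted in every strain. They were thus near the reading of a probe set without its RNA, and these ratios may understate the difference. Whether they were above the background of their own probe sets was not tested. The small reading frame YOR381W-A between FRE3 and FIT2 was also called down (-0.66), at low readings in both strains. Of the genes around them, RDR1, next to FRE3, was not called (-0.27, adjusted p = 0.177 from limma), and FRE5, next to FIT3, read too low in both strains for its ratio to say anything. Further out, YOR385W rose by 1.41, while PHR1, the DNA photolyase, fell by 1.12 and ATF1, an alcohol acetyltransferase, fell by 0.90.

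After these the decreases were moderate. DAL80, a GATA repressor of nitrogen catabolic genes, read 10.83, 11.57 and 10.99 in eco1-W216G, against 12.98, 13.09 and 13.11 in WT (log2 ratio -1.93, standard error 0.29, adjusted p = 8.95e-06 from limma). PEX18, a co-receptor for protein import into peroxisomes, read 7.07, 7.82 and 7.39 in eco1-W216G, against 9.24, 9.15 and 9.39 in WT (-1.83). FAR7, of a complex for arrest by pheromone, fell by 1.73, and AQY1, an aquaporin, by 1.44. YHR140W, TDA10 and YOR032W-A, whose roles are not known, fell by 1.72, 1.59 and 1.59. None of these 20 genes passed in scc2-D730V at 55 min, where their log2 ratios to the same 3 WT arrays lay between -0.42 and 0.70. Only 0.0347% of all probe sets passed in that comparison, so the lack of calls does not set these genes apart.

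**Figure D1:**
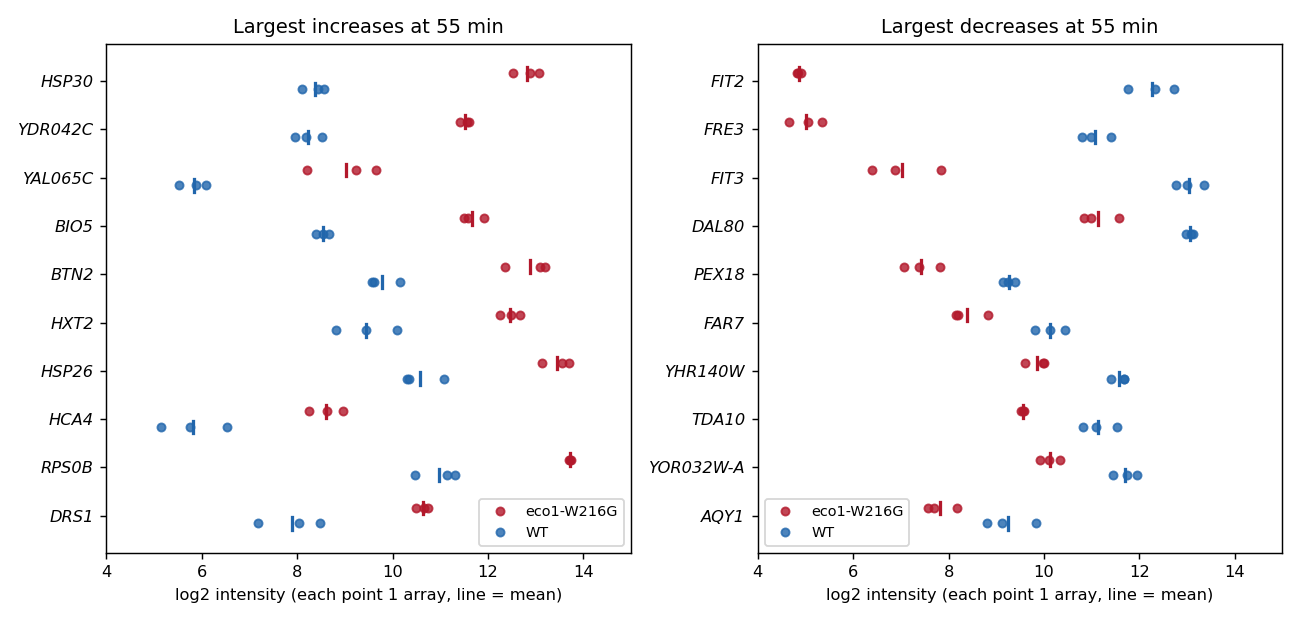
Log2 intensity of the 10 largest increases and the 10 largest decreases among named genes at 55 min. Each point is an array, red for eco1-W216G and blue for WT, and the short lines are means of 3. FIT2 and FRE3 sit near 5 in eco1-W216G, and genes with overlapping groups were left out when the genes were chosen.

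Ribosome assembly genes were higher in eco1-W216G almost throughout. Of 58 genes for the small subunit processome and 40S assembly, 55 were up and 0 down, with a median log2 ratio of 1.72, against -0.09 over all probe sets. All 58 had a ratio above 0, from 0.39 to 2.81. The median level of this list was 10.38, 10.23 and 10.49 on the eco1-W216G arrays, against 9.36 on WT replicate 1 and 8.01 on WT replicate 2, the highest and lowest WT arrays. The mutant arrays were alike and the groups did not overlap. Without WT replicate 2 the median log2 ratio was 1.30, and without WT replicate 1 it was 2.02.

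Genes for 60S assembly were similar, with 63 up and 1 down of 67 and a median log2 ratio of 1.71. REA1, the AAA ATPase that strips factors from the large subunit precursor, averaged 12.29 ± 0.25 in eco1-W216G and 10.82 ± 0.0014 in WT (SD, n = 3 each), or 1.47 on the log2 scale with a standard error of 0.18 (limma, adjusted p = 5.28e-07). Among the small subunit factors, ESF2 rose by 2.34 and SGD1 by 1.67. NSA1, of the large subunit, rose by 1.36. Of 17 genes for the core proteins of small nucleolar RNPs and their assembly, which guide the chemical modification of rRNA, 12 were up and 0 down (median 0.98). BCD1, an assembly factor of box C/D particles, rose by 1.86, GAR1, a core protein of H/ACA particles, by 1.68 and TAH1, a cochaperone of their assembly, by 0.85.

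The polymerases that transcribe rRNA and tRNA genes were split by subunit. Of 15 genes of RNA polymerase I and its factors, 10 were up and 1 was down (median 0.65), and 6 were up without eco1-W216G replicate 2. The median level of this list overlapped, at 10.16, 10.05 and 10.21 on the eco1-W216G arrays, against 10.26, 8.96 and 9.83 on the WT arrays. The largest subunits, RPA190 and RPA135, rose by 2.12 and 2.02, and RPA34 by 1.93. RPA190 read 11.70, 11.62 and 11.73 in eco1-W216G, against 10.30, 8.75 and 9.63 in WT, again with WT replicate 2 the lowest. Of 20 genes of RNA polymerase III and its factors, 7 were up and 2 down (median 0.48). Without WT replicate 2, 4 were up and the median was 0.26, and without WT replicate 1 the median was 0.72. The 2 decreases were lost under either other scaling of the arrays, which left 0 down. The median level of the polymerase III list also overlapped, at 10.12, 10.04 and 10.25 in eco1-W216G, against 10.42, 10.21 and 10.15 in WT. RPC31 rose by 1.91, RPC34 by 1.13 and RET1, the second largest subunit, by 1.00.

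Genes for the ribosomal proteins themselves were nearly all higher. Of 75 genes for proteins of the large subunit, 71 were up and 0 down (median log2 ratio 1.37), and of 52 for the small subunit, 49 were up and 0 down (1.38). The median level of the large subunit genes was 13.52, 13.28 and 13.44 on the eco1-W216G arrays, against 12.28, 11.62 and 12.01 on the WT arrays, without overlap. RPL17B had the smallest p. It read 12.70, 12.67 and 12.89 in eco1-W216G, against 10.48, 10.07 and 10.71 in WT, or 2.34 on the log2 scale with a standard error of 0.20 (limma, adjusted p = 3.42e-09). Its copy RPL17A rose by 2.06, RPL34B by 1.72, RPS9B by 1.93, RPS15 by 1.84 and RPS24B by 1.82.

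Yeast keeps most ribosomal protein genes in 2 copies, and 50 such pairs had a probe set for each copy. The log2 ratios of the copies differed by a median of 0.43, and 29 pairs differed by under 0.5. In 4 pairs they differed by at least 1, and no test was run on these differences. RPL15A had a log2 ratio of 1.37 and RPL15B one of -0.34, RPL37A one of 2.25 and RPL37B one of 1.01, RPS14B one of 2.28 and RPS14A one of 1.03, and RPS22A one of 1.52 and RPS22B one of 0.48. RPL15B was the only one of the 75 large subunit genes with a ratio below 0. Probe sets of near-identical copies can share signal, which 153 of all probe sets do by their names, and 35 of the 50 pairs had probe sets of 1 gene each.

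**Figure D2:**
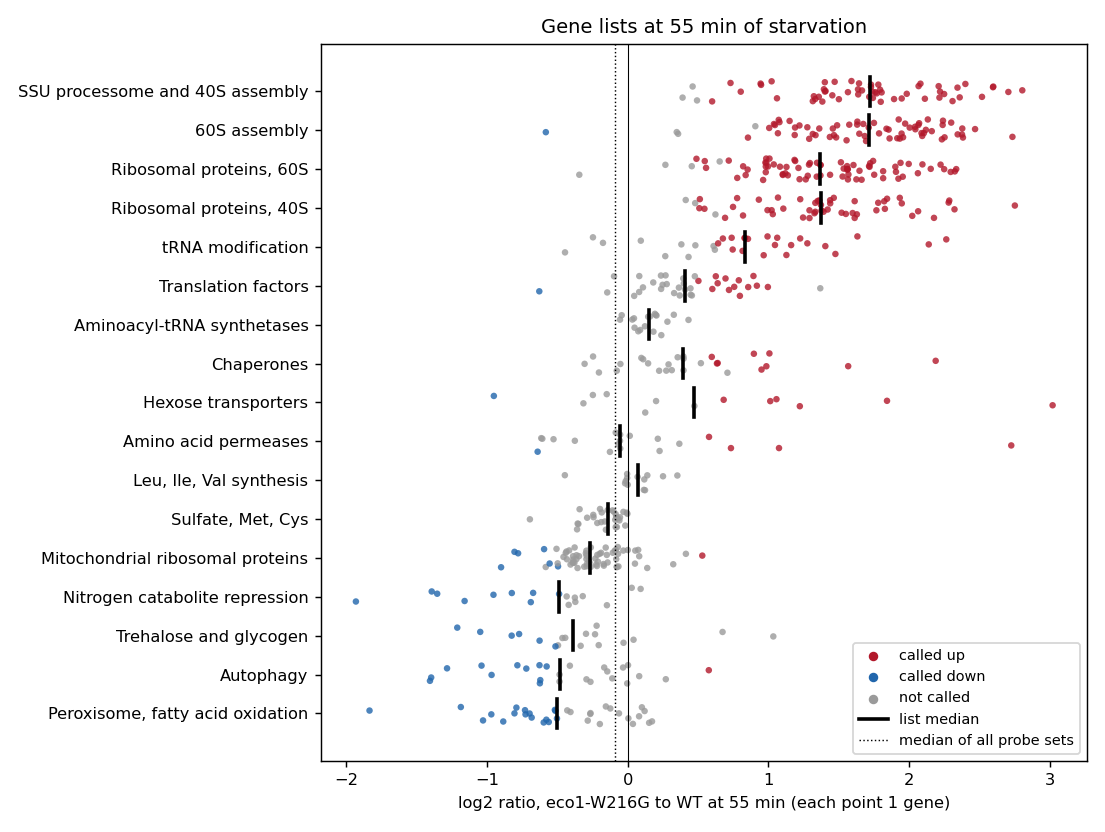
Log2 ratio of eco1-W216G to WT at 55 min for the genes of 17 lists. Each point is a gene, red if called up, blue if called down and grey if not called, the black bars are list medians and the dotted line is the median of all probe sets at -0.09. Assembly factors and ribosomal proteins lie at medians of 1.37 to 1.72, and autophagy and peroxisome genes at -0.48 and -0.50.

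The rest of the translation apparatus moved less. Of 31 tRNA modification genes, 21 were up and 0 down (median 0.83). The dihydrouridine synthases DUS3 and SMM1 rose by 2.26 and 1.48 and GCD10, a subunit of a tRNA methyltransferase, by 1.63. Of 37 translation factors, 13 were up and 1 was down (median 0.41), with 8 up without eco1-W216G replicate 3. RPG1, a subunit of initiation factor eIF3, rose by 0.92, FUN12, which is eIF5B, by 0.72 and TEF4, of elongation factor eEF1B, by 0.64. Of 18 aminoacyl-tRNA synthetases, 0 were up and 0 down, with log2 ratios from -0.05 to 0.43. Of 67 mitochondrial ribosomal proteins, 1 was up and 6 down, a smaller share down (8.96%) than the 14.4% of all probe sets. Their median was -0.27, and -0.13 under cyclic loess. MRP49 fell by 0.80, MRPL23 fell by 0.78, and IMG1 rose by 0.53. Leaving out eco1-W216G replicate 1 gave 3 decreases, and leaving out eco1-W216G replicate 2 gave 10.

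The amino acid synthesis genes, which answer to Gcn4, were close to WT in the mutant at 55 min. GCN4 read 14.72, 14.67 and 14.71 in eco1-W216G, against 14.75, 14.66 and 14.65 in WT, and the groups overlapped (log2 ratio 0.01, adjusted p = 0.914 from limma). The protein, which is controlled in translation, was not measured. Of 13 genes for leucine, isoleucine and valine, 12 for aromatic amino acids, 11 for threonine, serine and asparagine and 29 for sulfate assimilation, methionine and cysteine, 0 were up and 0 down. The medians of these lists were 0.07, -0.04, -0.07 and -0.14. The sign of the first 3 is not settled, since it turned without WT replicate 3 for the first (-0.02), under both other scalings, with array weights and without WT replicate 1 for the second, and without WT replicate 1 for the third (0.05). Without eco1-W216G replicate 2, 2 sulfur genes were down, and 1 was in the fit of only the arrays compared and with array weights. With array weights, or without eco1-W216G replicate 3 or WT replicate 2, 1 gene of the first list was down.

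In the other synthesis lists a few members passed. ORT1, the mitochondrial ornithine carrier, fell by 0.71 as the only call among 8 arginine genes (12.5% down, against 14.4% of all probe sets). HIS2 fell by 0.58 as the only call among 7 histidine genes (14.3% down), and it was not called under cyclic loess. LYS4, homoaconitase, rose by 0.95, while LYS5 fell by 0.58 and LYS14, the activator of the lysine genes, fell by 0.49, among 9 lysine genes. LYS14 lost its call in 7 of the alternative settings. Of 15 purine genes 4 were up and 1 was down, and 3 of the 4 were IMP dehydrogenases, which commit purines to guanine nucleotides. IMD3 read 12.91, 12.94 and 12.82 in eco1-W216G, against 11.30, 11.62 and 11.64 in WT, or 1.37 on the log2 scale with a standard error of 0.17 (limma, adjusted p = 5.28e-07). IMD2 rose by 1.51 and IMD4 by 1.25, and GUA1, which makes GMP from the product of these enzymes, by 1.47. The probe set of IMD2 matches more than 1 gene by its name.

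Genes for the use of poor nitrogen sources were lower. Of 17 genes under nitrogen catabolite repression, 0 were up and 9 down, with a median of -0.49. Beside DAL80, the allantoin pathway genes DAL3 and DAL7 fell by 1.35 and 0.82. DAL3 read 12.53, 12.84 and 12.29 in eco1-W216G, against 14.12, 13.89 and 13.71 in WT. The groups did not overlap for DAL3 or DAL7, as for 799 of the 829 probe sets called down, while DAL80 was chosen among genes without overlap. Of 19 genes of glutamate, proline and GABA metabolism, UGA2, the last enzyme of GABA breakdown, fell by 0.68 and PUT2, of proline breakdown, by 0.75, and CAR1, arginase, rose by 1.38. These calls are 10.5% down and 5.26% up, below the shares of all probe sets. Of 19 amino acid permeases, 4 were up and 1 was down, or 3 down with the replicate block or array weights and 2 without eco1-W216G replicate 2 or in the fit of only the arrays compared. AGP1, a permease of broad specificity, rose by 2.73 and BAP3, for branched-chain amino acids, by 1.08. CAN1, the arginine permease, fell by 0.64, in strains that all carry can1-100.

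AGP1 and CAR1 were the 2 probe sets whose ratio to WT differed between 55 and 35 min, at an adjusted p under 0.05 from limma. They are 0.0347% of those tested, both with a higher ratio at 55 min. No probe set had a lower one (0.00%). With array weights 415 probe sets differed, so the number depends strongly on the model. AGP1 read 12.72, 12.09 and 12.63 in eco1-W216G at 55 min, against 9.08, 10.35 and 9.83 in WT. At 35 min the groups overlapped, with a log2 ratio of 0.14, and the ratio was 2.59 higher at 55 min (standard error 0.42, adjusted p = 0.00811 from limma). Over 0, 15, 35 and 55 min AGP1 averaged 12.83, 13.75, 12.98 and 12.48 in eco1-W216G and 13.03, 13.99, 12.84 and 9.75 in WT. It was thus the WT level that dropped late, while the mutant level moved little between 35 and 55 min.

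CAR1 had the same course. It read 13.08, 12.95 and 13.22 in eco1-W216G at 55 min, against 11.52, 11.60 and 11.98 in WT. The log2 ratio was 0.00 at 35 min, 1.38 below that at 55 min (standard error 0.27, adjusted p = 0.0458 from limma). CAR1 averaged 13.47, 13.55, 13.12 and 13.08 in eco1-W216G at the 4 times and 12.90, 14.22, 13.12 and 11.70 in WT. In a fit of only the arrays compared, neither gene passed (adjusted p = 0.222 for both). Without eco1-W216G replicate 1 or WT replicate 1 the adjusted p was 0.0539 or 0.054 for AGP1. CAR1 passed without WT replicate 3 (0.0216) and in none of the other 5 omissions.

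Several further genes had a ratio near 0 at 35 min and were called at 55 min, with a difference between the times that did not pass. HXT4, a glucose transporter, had log2 ratios of 0.01 at 35 min and 1.22 at 55 min, IMD2 of 0.24 and 1.51, and HXK1, hexokinase 1, of -0.30 and 1.77. The call of HXK1 at 55 min was lost without eco1-W216G replicate 1, eco1-W216G replicate 3 or WT replicate 1. Of 13 hexose transporters, 6 were up and 1 was down at 55 min (median 0.47). HXT9, a subtelomeric member, rose by 1.84. HXT2 averaged 13.75, 12.87, 12.17 and 12.47 in eco1-W216G over the 4 times and 13.44, 12.10, 10.41 and 9.45 in WT.

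**Figure D3:**
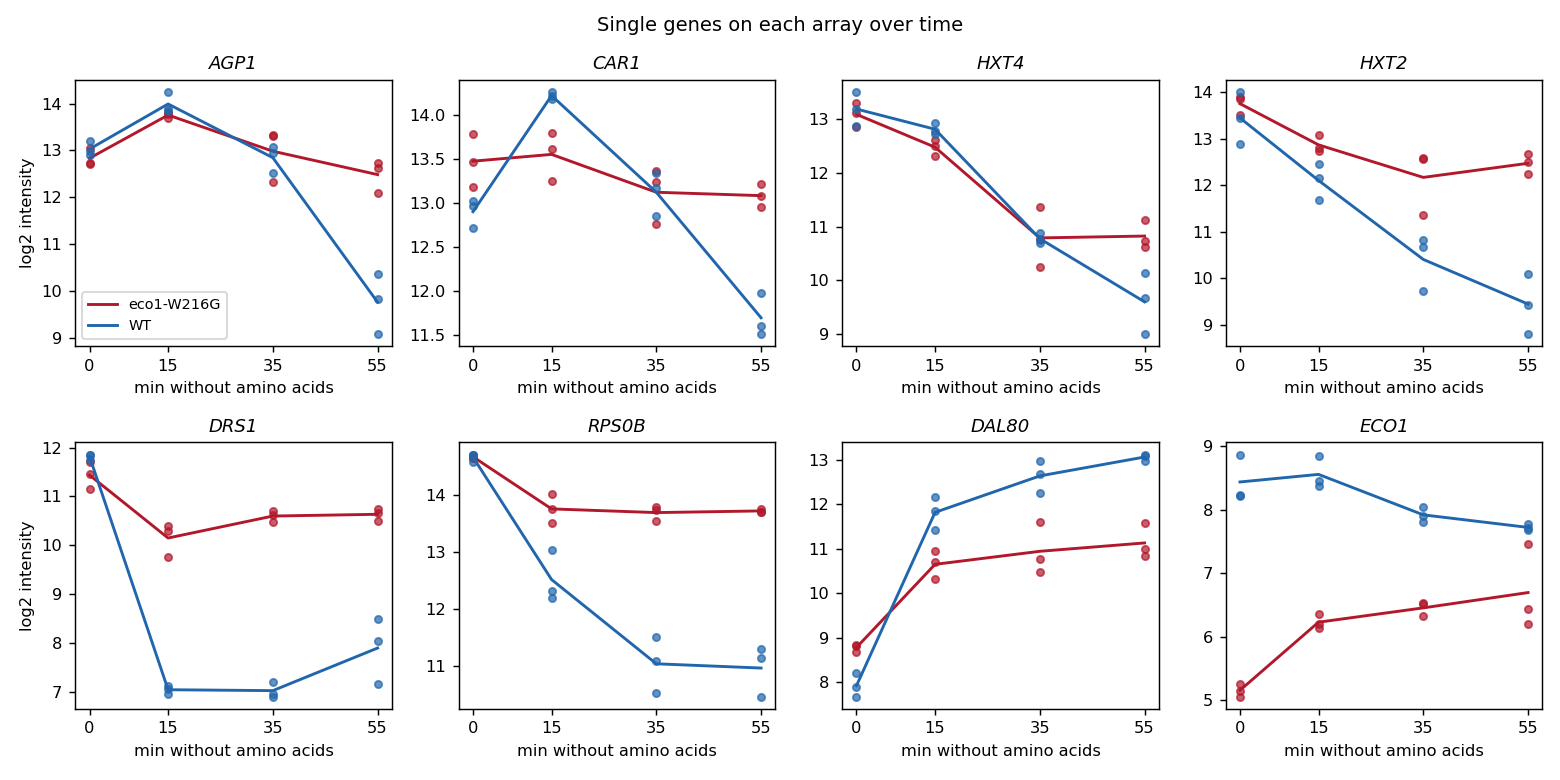
Log2 intensity of 8 genes over 0, 15, 35 and 55 min without amino acids. Each point is an array, the lines join means of 3, and eco1-W216G is red and WT blue. AGP1 and CAR1 have overlapping groups at 35 min and separate ones at 55 min, DRS1 and RPS0B stay at least 2.74 higher on average in eco1-W216G at 55 min, and ECO1 has its smallest difference at 55 min.

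The ratio to WT at 55 min was set against that in rich medium for all probe sets. It was higher at 55 min in 900 probe sets (15.6%) and lower in 987 (17.1%), at an adjusted p under 0.05 from limma. Of the 843 probe sets up at 55 min, 115 were up, 25 were down and 703 were not called at 0 min. Of the 829 down at 55 min, 80 were down, 112 were up and 637 were not called at 0 min. The arrays of the 2 times are different hybridisations, but by the paper's account the cultures of a strain were sampled over time. The main fit took the arrays as independent, and same-numbered arrays of a strain may share a culture.

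Few of the ribosome genes were called at 0 min. For the small subunit assembly list the median log2 ratio was -0.44 at 0 min, 2.50 at 15 min, 2.35 at 35 min and 1.72 at 55 min, and 54 of the 58 had a higher ratio at 55 than at 0 min. The median level of the list ranged over 10.23 to 10.49 on the eco1-W216G arrays at 55 min and 9.40 to 10.24 at 15 min. On the WT arrays it ranged over 8.01 to 9.36 at 55 min and 7.24 to 7.57 at 15 min, so that the WT arrays at 55 min were all above those at 15 min. The ribosomal proteins had another course. The median log2 ratio of the large subunit genes was -0.10, 0.56, 1.35 and 1.37 at the 4 times, and the WT arrays ranged over 11.62 to 12.28 at 55 min and 12.76 to 13.11 at 15 min.

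**Figure D4:**
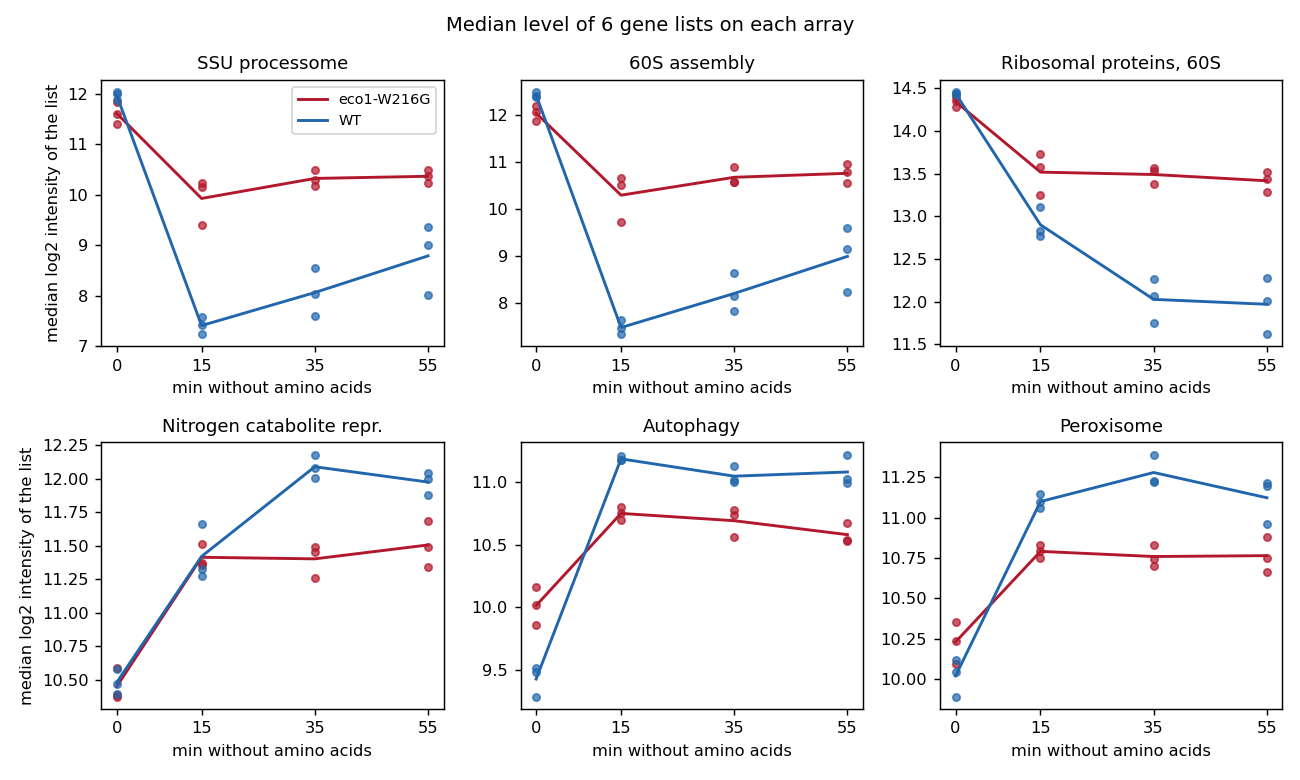
Median log2 intensity of 6 gene lists on each array over 0, 15, 35 and 55 min without amino acids. Each point is an array, the lines join means of 3, and eco1-W216G is red and WT blue. At 55 min small subunit assembly genes lie at 10.23 to 10.49 in eco1-W216G and 8.01 to 9.36 in WT, and autophagy genes at 10.53 to 10.68 in eco1-W216G and higher on each WT array.

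Autophagy and peroxisome genes were the other large groups of decreases. Of 25 autophagy genes, 1 was up and 11 down, with a median log2 ratio of -0.48. The median level of the list was 10.53, 10.54 and 10.68 on the eco1-W216G arrays, and every WT array was higher, with 11.03 in replicate 1 and 11.22 in replicate 2. ATG14, of the lipid kinase complex that starts autophagosomes, averaged 8.71 in eco1-W216G and 10.11 in WT (log2 ratio -1.40). ATG31, of the initiating kinase complex, fell by 1.28, and ATG9, the membrane protein that seeds autophagosomes, by 0.97. Both had groups without overlap, as did 799 of the 829 probe sets called down.

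Of 33 genes of peroxisomes and fatty acid oxidation, 0 were up and 17 down, with a median of -0.50. Beside PEX18, the ubiquitin ligase PEX10 fell by 0.79 and the acyl-CoA synthetase FAA2 by 0.88. The 17 became 11 under cyclic loess and 10 without WT replicate 2. PEX10 read 10.51, 10.88 and 10.59 in eco1-W216G, against 11.66, 11.38 and 11.31 in WT. Of 9 genes of vacuolar proteases and their inhibitors, 3 were down and 0 up, namely PBI2, TFS1 and APE1. Their groups did not overlap, as for 799 of the 829 probe sets called down. The call of APE1 was lost in 7 alternative settings and that of TFS1 in 3. Only 1 of the list was down without eco1-W216G replicate 1, WT replicate 2 or WT replicate 3. Of 33 proteasome genes 1 was up (3.03%, against 14.6% of all probe sets), their activator RPN4, by 0.57. Its call was lost without eco1-W216G replicate 3 or WT replicate 3.

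Stress and carbon metabolism genes were divided at 55 min. Of 27 chaperone genes, 9 were up and 0 down (median 0.40). The Hsp70 genes SSA3 and SSA4 rose by 2.19 and 1.57, and the Hsp90 cochaperone CPR6 by 0.99. SSA4 read 12.83, 12.42 and 12.88 in eco1-W216G, against 10.87, 11.58 and 10.97 in WT. Of 11 genes of folding in the endoplasmic reticulum, 3 were up, namely KAR2 (0.85), JEM1 (0.80) and EUG1 (0.73). Oxidative stress genes were not part of this, with 0 up and 3 down of 22 (13.6%, against 14.4% of all probe sets). CTA1, the peroxisomal catalase, fell by 0.97, GPX1 by 0.84 and GSH1 by 0.58. The 3 became 0 without WT replicate 2 and 1 without eco1-W216G replicate 1 or 3.

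Reserve carbohydrate genes differed from WT in other directions in rich medium and after starvation. Of 18 genes for trehalose and glycogen, 11 were up at 0 min with a median log2 ratio of 0.85, and at 55 min 0 were up and 6 down with a median of -0.39. With the replicate block, either other scaling, the fit of only the arrays compared or without WT replicate 2, 1 was up at 55 min, and 2 were with array weights. Of the 18, 14 had a lower ratio at 55 than at 0 min by the test of that difference. The trehalases NTH2 and NTH1 fell by 1.21 and 0.63 at 55 min, and PGM2, phosphoglucomutase, by 1.05. NTH2 read 10.51, 10.63 and 10.64 in eco1-W216G, against 11.63, 11.90 and 11.88 in WT. Of 14 stationary phase genes, 13 were up at 0 min. At 55 min 2 were up (14.3%, against 14.6% of all probe sets) and 1 was down. The 2 were SIP18 (2.60) and SPG5 (0.52), and DCS2, a relative of the decapping scavenger, fell by 0.95. The call of SPG5 was lost without WT replicate 1.

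Within the tricarboxylic acid and glyoxylate list, 18 of 27 genes were up at 0 min. At 55 min 5 were down (18.5%, against 14.4% of all probe sets), or 3 without eco1-W216G replicate 1, and 1 was up (3.70%). The 1 was ICL1, isocitrate lyase, which read 12.01, 11.89 and 12.44 in eco1-W216G, against 10.84, 10.88 and 11.03 in WT (log2 ratio 1.20). MLS1, malate synthase and the next enzyme of the glyoxylate cycle, read 9.95, 10.80 and 9.91 in eco1-W216G, against 11.66, 11.79 and 11.46 in WT (-1.41). MDH3, the peroxisomal malate dehydrogenase of the same cycle, fell by 0.83. Of 34 genes of the respiratory chain and ATP synthase, COX12 and ATP17 were down (5.88%, against 14.4% of all probe sets), by 0.55 and 0.49. Without eco1-W216G replicate 3, 0 were down. Of 21 genes of glycolysis and fermentation, HXK1 was up and PDC6 was down, by 0.88. Each is 4.76% of the list, below the share of all probe sets. Neither was called without eco1-W216G replicate 1 or 3.

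Smaller nutrient lists held some large increases. Of 5 biotin genes, 4 were up and 0 down (median 0.79), with BIO2 at 1.16 and BIO4 at 0.79 beside BIO5. BIO5 averaged 8.34, 9.94, 10.56 and 11.67 in eco1-W216G over the 4 times and 8.09, 7.66, 8.05 and 8.53 in WT. Of 16 phosphate genes, 4 were up and 0 down. PHO89, a phosphate transporter, rose by 2.17, and the acid phosphatases PHO3 and PHO5 by 1.86 and 1.51. PHO5 read 12.67, 12.68 and 12.68 in eco1-W216G, against 11.01, 11.35 and 11.13 in WT. Of 11 thiamine genes, THI4 and THI7 rose by 1.01 and 0.62, and THI6 fell by 0.65 as 1 of 2 that were down. These are 18.2% in each direction, against 14.6% up and 14.4% down of all probe sets. The call of THI4 was lost without WT replicate 1. Of 4 vitamin B6 genes, SNZ3 rose by 0.87, with a probe set that matches more than 1 gene by its name. Of 20 iron genes, 1 was up and 4 were down, 3 of them at the FIT2 locus. The others were the ferric reductases FRE1 (1.16) and FRE2 (-0.71), and 0 were up without eco1-W216G replicate 1 or 2 or WT replicate 2 or 3.

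Of 26 ergosterol genes, 0 were up and 4 down (15.4%, against 14.4% of all probe sets), including ERG26 (-0.96), ERG8 (-0.55) and ERG6 (-0.49). The 4 became 1 without WT replicate 1, 2 without eco1-W216G replicate 1 or with each array centred on its median, and 7 without eco1-W216G replicate 2. With the replicate block, array weights, the fit of only the arrays compared or without WT replicate 3, 1 was up. Of 16 inositol and phospholipid genes, 0 were up and 4 down. The activator INO4 fell by 0.97, PSD1, phosphatidylserine decarboxylase, by 0.73 and the repressor OPI1 by 0.67. Leaving out eco1-W216G replicate 1 gave 2, and leaving out eco1-W216G replicate 2 gave 7. Of 29 cell wall genes, 7 were up and 0 down. YPS3, an aspartic protease of the cell surface, read 11.60, 11.70 and 11.45 in eco1-W216G, against 8.27, 9.43 and 8.94 in WT (log2 ratio 2.71). GAS2, a glucan-remodelling enzyme, rose by 1.76 and TIP1, a wall mannoprotein, by 1.09.

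Cell cycle and differentiation lists held few calls each, at shares from below to above those of all probe sets. Of 13 genes of G1 cyclins and Start, 2 were up (15.4%, against 14.6% of all probe sets), CLN3 by 0.98 and CLN2 by 0.66. The call of CLN2, whose groups overlapped, was lost without eco1-W216G replicate 2 or 3 or WT replicate 1 or 2. Of 17 genes of G2/M and mitotic exit, 6 were up (35.3%, against 14.6% of all probe sets) and 0 down. They include BUD4 (1.34), the transcription factor SWI5 (1.13) and the myosin MYO1 (0.82). Of 35 replication genes, 4 were up (11.4%, against 14.6% of all probe sets) and 1 was down. Among them were RNR1, of ribonucleotide reductase, at 0.71, CDC45 at 0.65 and ORC5 at -0.57. Of 10 histone genes HTB2 was the only call, at -0.59, and the number of histone genes down was 0 without eco1-W216G replicate 3 or WT replicate 2 and 4 without eco1-W216G replicate 1 or WT replicate 1.

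Among 9 genes of cohesin and its regulators, ECO1 and RAD61, which releases cohesin from chromosomes, were down, RAD61 by 0.59, and 0 were up. Of 13 condensin and Smc5/6 genes, 2 were up (15.4%, against 14.6% of all probe sets), the condensin subunits YCS4 by 0.86 and SMC2 by 0.50. NSE3, of Smc5/6, fell by 0.97. SMC2 overlapped between the groups and lost its call without eco1-W216G replicate 1 or 3 or WT replicate 2 or 3. Of 16 mating genes, 1 was up, FIG1 by 1.39, and 3 were down (18.75%, against 14.4% of all probe sets). Among the 3, STE4, the beta subunit of the pheromone G protein, fell by 0.52 and FUS2 by 0.76. The call of STE4 was lost under both other scalings, with array weights and without WT replicate 1. Of 14 meiosis genes, 5 were up (35.7%, against 14.6% of all probe sets) and 0 down, and 3 were up without eco1-W216G replicate 3 or WT replicate 1. Among probe sets with a mean log2 value of at least 8, 3 were up and the list median turned from 0.10 to -0.19. In the fit of only the arrays compared, 2 were down, and with array weights or cyclic loess 1 was. IME1, the master activator of meiosis, read 9.14, 8.95 and 9.76 in eco1-W216G, against 7.30, 7.74 and 7.67 in WT (log2 ratio 1.72). SPS1, a kinase of sporulation, rose by 1.66 and RIM4, which holds back meiotic translation, by 1.06.

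The lists hold 1156 of the 5449 genes measured. Of 789 genes up, 378 were in a list and 411 were in none. Of 776 genes down, 99 were in a list and 677 in none, so that the decreases were for the most part outside the functions described. Genes with only a systematic name were 95 of the genes down, 12.2%, and 66 of the genes up, 8.37%, against 9.16% of all genes.

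The calls were also unevenly placed on the chromosomes. The median log2 ratio of the genes on a chromosome was between -0.16 and 0.00 for 13 of the 16. It was 0.22 for the 90 genes on chromosome I, 0.09 for the 191 on IX and 0.03 for the 148 on III. On chromosome I, 22 genes were up and 3 down, or 24.4% and 3.33%, and on III 33 were up and 5 down, or 22.3% and 3.38%. On chromosome IV, with 705 genes, the shares were 12.3% up and 17.3% down. The median of chromosome I was 0.24, 0.10, 0.15 and 0.22 at 0, 15, 35 and 55 min. On the single eco1-W216G arrays at 55 min, set against the WT mean, it was 0.20, 0.24 and 0.17. The same median of a WT array against the other WT arrays was -0.07, 0.13 and -0.05, and that of the scc2-D730V arrays against the WT mean was -0.06, 0.01 and 0.07. Of 245 genes within 25000 bases of the first or last annotated gene of a chromosome, 15.1% were up and 10.6% down, against 14.5% and 14.4% of all others. The positions are those of RefSeq assembly R64, and these medians and shares carry no test. The paper tested a locus on each chromosome arm by qPCR and reports no aneuploidy in its eco1-W216G strain of this background. In the cultures used for these arrays, the copy number of the chromosomes was not tested here.

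**Figure D5:**
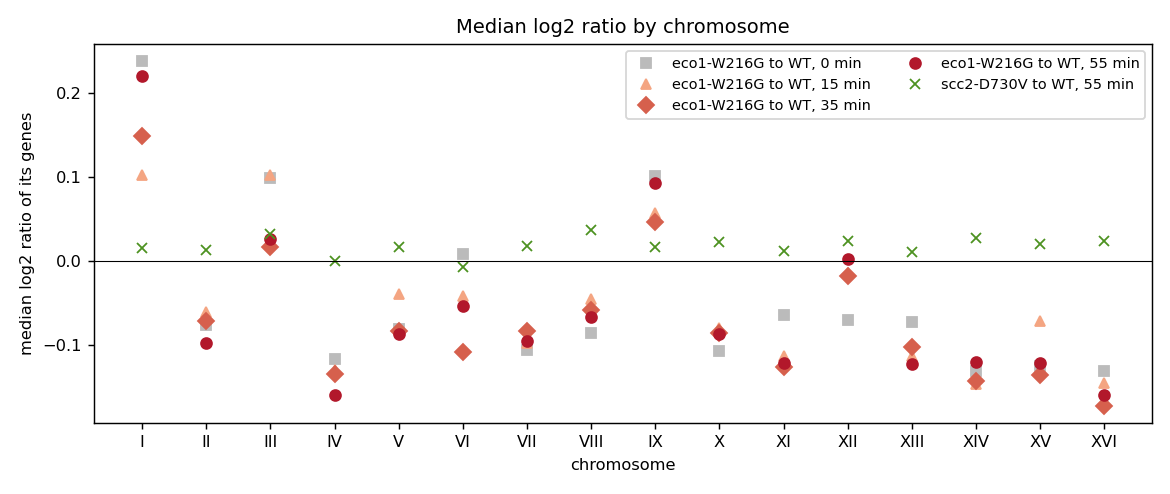
Median log2 ratio to WT of the genes on each of the 16 chromosomes, for eco1-W216G at 0, 15, 35 and 55 min and for scc2-D730V at 55 min. Chromosome I stands at 0.22 at 55 min in eco1-W216G and at 0.02 in scc2-D730V, and IX and III lie above 0 at all 4 times in eco1-W216G.

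In scc2-D730V, 2 probe sets differed from WT at 55 min, 0.0347% of those tested, and 20 at an unadjusted p under 0.05 by limma. That is far fewer than this threshold would pass if no probe set differed. The p-values of this comparison thus ran high, and the few calls do not show the strains to be alike. Both mutants were compared with the same 3 WT arrays. The median log2 ratio to WT of the small subunit assembly list was 1.72 in eco1-W216G and 0.53 in scc2-D730V, that of the large subunit ribosomal proteins was 1.37 in eco1-W216G and 0.27 in scc2-D730V, and that of the autophagy list was -0.48 in eco1-W216G and -0.04 in scc2-D730V.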

How the data were processed

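The authors normalised the arrays by RMA and deposited an intensity per probe set, on a linear scale from 17.3 to 43883. The RMA version was not stated in what was read here. Log2 was taken, and 51 control probe sets were left out of 5814. R 4.3.3 and limma 3.58.1 fitted 12 group means over 36 arrays, with 24 residual degrees of freedom and a prior worth 3.71. p-values were adjusted by Benjamini and Hochberg within each comparison. The number of arrays limits the precision, and p-values measure the spread between cultures of single strains. In simulated data for this comparison, 200 of 5763 probe sets were changed, and a call needed an adjusted p under 0.05 but no fold limit. The share recovered was 50.7% at 1.4-fold, 86.6% at 2-fold and 98.5% at 4-fold, and 9.25% of calls were false. The calls reported above also needed at least 1.4-fold and were far more numerous than the changes simulated. These shares therefore do not carry over to them directly. The simulated noise was independent between arrays.

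A gene was represented by its brightest probe set, and 5498 probe sets carried a single gene name. Residuals of same-numbered eco1-W216G and WT arrays at 55 min correlated at 0.19, 0.30 and 0.26, so the numbers were taken to pair the arrays and a replicate block was an alternative. Other alternatives changed the scaling, variance model, array weights, a filter on dim probe sets, thresholds, arrays in the fit and replicates. Named genes were the 10 largest increases and 10 largest decreases without overlap, up to 3 called members of each of 52 lists, and ECO1, SCC2, BAR1 and GCN4. Genes named beside them (the neighbours of FIT2, the ribosomal protein copies and the mating type markers) were chosen for their position or kind. Members and lists were chosen with earlier results of these data known. The description of promoter motifs was not run.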

Additional observations from a re-analysis of the deposited data

Results flagged for a closer look

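The ratio of eco1-W216G to WT differed between 55 and 35 min in 2 probe sets, those of AGP1, higher by 2.59 at 55 min (adjusted p = 0.00811 from limma), and CAR1, higher by 1.38 (0.0458). It differed between 55 and 0 min in 1887 probe sets, higher at 55 min in 15.6% of those tested and lower in 17.1%. Among the 138 named genes it differed between these times in 99, by -3.04 to 3.16 on the log2 scale, higher at 55 min in 58 and lower in 41. Nearly all named genes were chosen by their values at 55 min, which this difference uses again. The choice thus favours a difference, and the 99 cannot be weighed against the share of all probe sets.

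Of the 20 genes with the largest changes at 55 min, 17 had a ratio that differed from that at 0 min, a count that their choice by the 55 min ratio also favours. The ratio was higher at 55 min for HCA4 by 3.16, DRS1 by 3.12, BIO5 by 2.88, RPS0B by 2.75, HXT2 by 2.71, YAL065C by 2.27 and BTN2 by 1.32 (limma, adjusted p from 2.08e-05 to 0.0358). The difference, 55 min minus 0 min, was -2.14 for HSP26, -2.19 for FIT2, -1.39 for FRE3, -2.46 for FIT3, -2.79 for DAL80, -1.86 for PEX18, -1.69 for FAR7, -2.87 for YHR140W, -1.28 for TDA10 and -1.58 for YOR032W-A (adjusted p from 8.82e-06 to 0.017). For FIT2, WT averaged 10.11 at 0 min and 12.27 at 55 min, while eco1-W216G averaged 4.89 and 4.86. For FRE3, WT averaged 9.83 and 11.06, and eco1-W216G averaged 5.17 and 5.01. Both differences thus came mostly from a higher WT level at 55 min.

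Over all probe sets, 112 were up at 0 min and down at 55 min, and 25 were down at 0 min and up at 55 min. The named genes called in opposite directions at 0 and 55 min numbered 11, and all 11 were higher than WT in rich medium and lower after 55 min. Beside DAL80 and YHR140W, the difference was -1.64 for UGA2, -1.74 for GPX1, -2.31 for PGM2, -1.67 for NTH1, -2.86 for DCS2, -2.21 for MLS1, -1.75 for PDC6, -2.22 for PBI2 and -2.23 for TFS1. Of these 11, GPX1 lost its call at 55 min in 7 alternative settings and PDC6 and TFS1 in 3 each, and the other 8 lost it in none of the settings of arrays, scaling or model. ECO1 had a ratio 2.25 higher at 55 than at 0 min (adjusted p = 1.66e-05). Groups of 3 arrays were not examined for outlying arrays.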

How the results depend on the processing

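The 843 increases and 829 decreases stayed within 1.5 times of these counts in the alternatives other than the fold limits. At least 2-fold, 497 and 107 remained. Without single arrays the increases numbered 699 to 830 and the decreases 628 to 917. With the replicate block, which pairs the arrays by number, they numbered 896 and 879, and it changed the call of 0 of the 135 named genes called. Centring each array on its median gave 937 and 659 and moved the median of all probe sets to -0.03. The probe sets whose ratio differed between 55 and 0 min, 1887, numbered 2965 with array weights and 1187 at an adjusted p under 0.01. They numbered 2395 with culture as a random block, 2282 with the replicate block, and 1480 to 1893 without single arrays. Those that differed between 55 and 35 min, 2, numbered 415 with array weights, 1 under cyclic loess or at an adjusted p under 0.01, 0 in a fit of the arrays compared alone, and 0 to 2 without single arrays. The cause was not tested. The 2 probe sets that differed between scc2-D730V and WT numbered 0 in a fit of their arrays alone. Of the 135 named genes called, 26 lost the call in at least 1 setting of the arrays, scaling or model, and 0 changed direction. Changes of 1.4-fold were the least often recovered in simulated data, so a gene not called is not shown to be alike in the strains.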
